A study of Mus musculus with 28 samples.

Results

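Mucosal antimicrobial defence was followed through 8 genes, Defb1, Defb4, Lcn2, Slpi, Mptx1, Reg3g, Pglyrp1 and Cd177, out of 13613 genes analysed on 28 Affymetrix mouse expression arrays. Each gene was read from the probe set that carries its symbol alone and has the highest mean over all arrays, and Defb1 was chosen by its measured values, which were lower in the p63 knockout of every tissue. The large differences of Defb4 and Cd177 in proximal stomach and of Mptx1 in bladder at E18 were also known when the genes were selected. Those differences, and all of Defb1, are therefore described without a test. All 8 genes passed the filter on dim probe sets, but Defb4 lay above the array median on just 2 arrays and Lcn2 on 4. Those of Lcn2 were all knockout arrays, so it passed the filter through the knockout alone.

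The arrays compare p63 knockout with wild-type fetuses of the Balb/c strain in 14 groups of 2 arrays. Bladder was taken at embryonic days 15, 18 and 19 (E15, E18, E19). The proximal and the distal stomach, the small and the large intestine were taken at E18. The labels name neither the knockout allele nor the boundaries of each dissection, and they do not say how many animals there were or whether the arrays of a group come from separate ones. P-values therefore measure the spread between these samples, which may be technical.

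Mucosal surfaces hold microbes off with secreted proteins. Defensins are small cationic peptides that damage microbial membranes. Lectins and peptidoglycan receptors of the gut bind bacterial walls, lipocalin 2 withholds iron by binding bacterial siderophores, and antiproteases protect the epithelium from neutrophil enzymes. p63, a transcription factor of the p53 family with the mouse symbol Trp63, is required for stratified epithelia to form. Bladder and proximal stomach carry stratified lining, whereas distal stomach and intestine are lined by a simple columnar layer.

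Values are the deposited log2 values, so a difference of 1 is a doubling, and the array medians lay between 7.48 and 7.86. The E19 bladder arrays had the lowest medians (7.48 to 7.53), which bears on comparisons of E19 with earlier stages. No detection call came with the values, so a dim probe set may or may not be above background. Trp63 itself had means of 13.24 in wild-type and 13.72 in p63-deficient proximal stomach, and 11.97 against 9.53 in E19 bladder. The position of its probe set relative to the altered part of the gene is not given, so it does not check the labels. Krt5, the basal keratin of stratified epithelia, had means of 14.05 against 8.25 in proximal stomach and 12.45 against 7.44 in E19 bladder. Defining markers of bladder, of both parts of the stomach and of small intestine were present in both genotypes. Upk3a, a urothelial plaque gene, was between 12.86 and 14.25 in bladder and at most 7.85 elsewhere. Other urothelial genes were also high in knockout proximal stomach, where Upk2 was at 14.05 against 8.74 and Upk1b at 12.45 against 8.73. Of 12 urothelial markers 8 rose there and 2 fell, beside 32.7% of all genes called in either direction. Krt13 was at 14.64 and 14.61 in proximal stomach (wild type first), Gkn2 was at 13.81 and 13.18 in distal stomach, and Apoa4 was at 15.24 and 15.17 in small intestine. Cdx2 reached 13.12 or more in both intestinal regions. No marker of large intestine alone is given, so that label was checked as intestine only. Car4, another intestinal marker, was dim in large intestine (5.76 and 5.02, wild type first) and reached 9.27 in knockout proximal stomach.

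**Figure D1:**
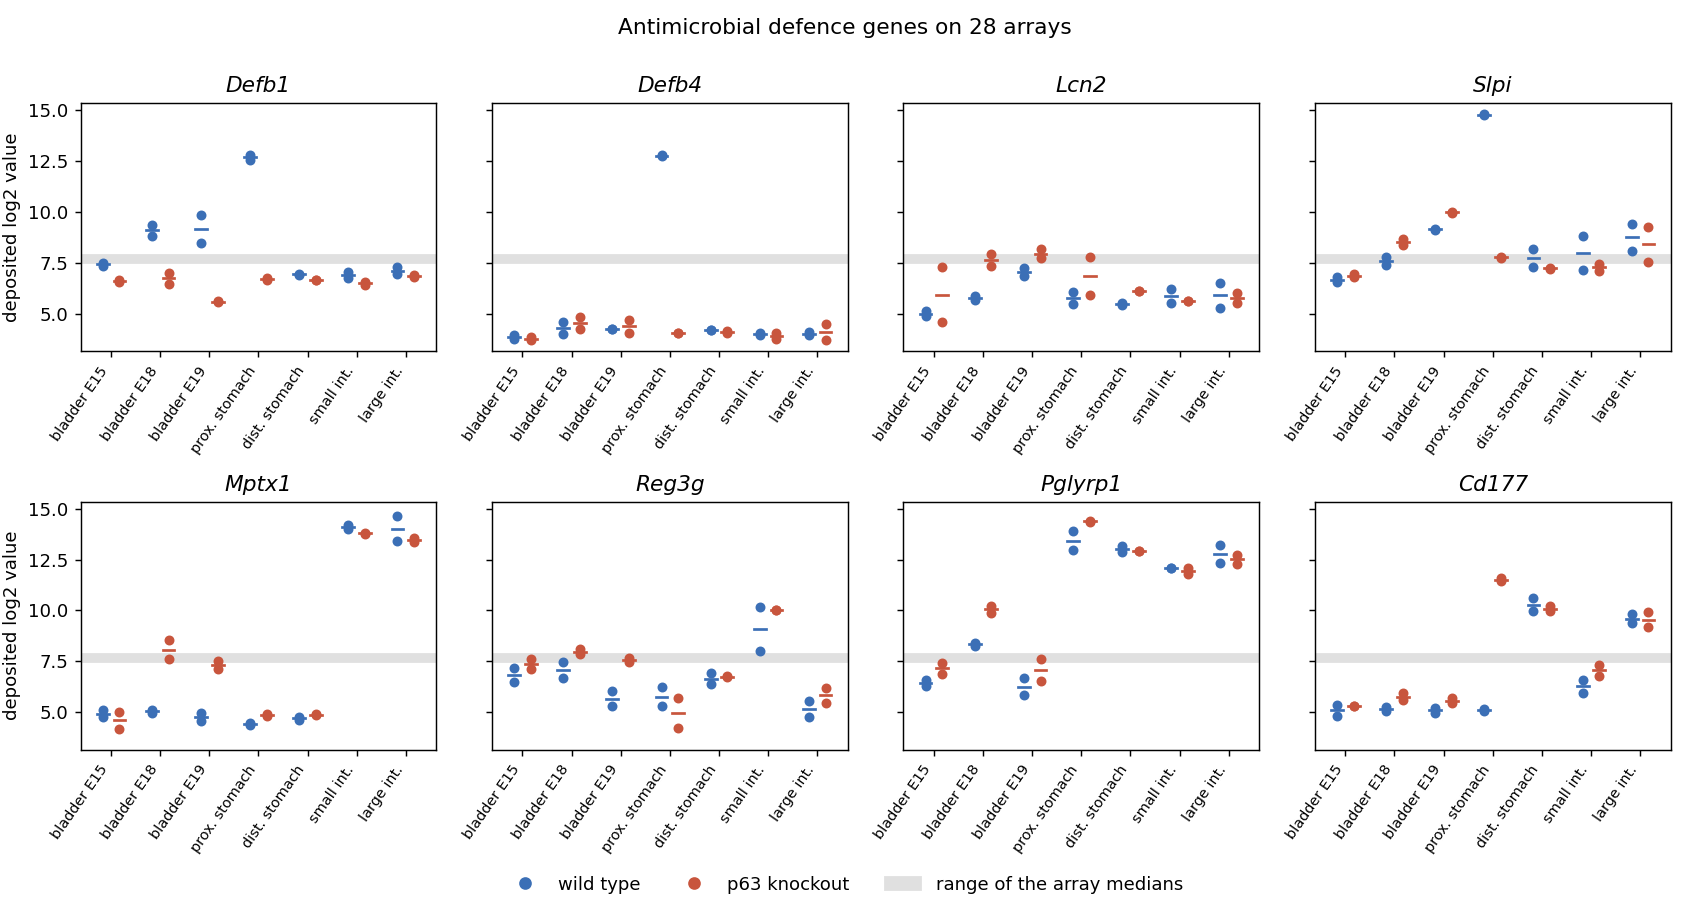
Deposited log2 values (vertical axis) of the 8 genes in the 7 tissues and stages (horizontal axis). Points are arrays, short lines are group means of 2 arrays, blue is wild type, red is knockout, and the grey band is the range of the array medians (7.48 to 7.86). Defb1, Defb4 and Slpi stand high in wild-type proximal stomach, where all 3 are low in the knockout, while Cd177 shows the reverse.

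Between genotypes, the calls among these genes were in proximal stomach and bladder, with none in the columnar gut. Tested with limma against all genes (Benjamini-Hochberg adjusted p under 0.05), 5 of 46 gene-by-tissue tests passed, 4 higher and 1 lower, beside 9.01% of such tests over all genes. The 5 were Slpi and Pglyrp1 in proximal stomach, Pglyrp1 in bladder at E18, and Mptx1 and Reg3g in bladder at E19. The 46 include 6 tests of Defb4 outside proximal stomach, where none of its arrays read above 4.81, so these had little to show. They also include the tests of Lcn2, which passed the filter through knockout arrays alone. In proximal stomach 2 of 5 tests passed beside 32.7% of all genes, at E18 in bladder 1 of 6 beside 3.24%, at E19 2 of 7 beside 20.0%, and at E15 none of 7 beside 7.04%. None of the 7 tests passed in distal stomach (0.0% of all genes), small intestine (0.0%) or large intestine (0.0882%). At an unadjusted p under 0.05, limma found 528 genes in distal stomach (3.88%), 626 in small intestine (4.6%) and 665 in large intestine (4.89%). Of the 7 genes tested in each tissue, Cd177 in small intestine was the 1 with such a p in the columnar gut, and none had one in E15 bladder. Fitting the arrays of each comparison alone raised the count from 5 to 8.

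Whether the array values of the genotypes overlapped was counted for all 8 genes. In proximal stomach Defb1, Defb4 and Slpi lay lower in the knockout without overlap (28.6% of all genes did) and Mptx1, Pglyrp1 and Cd177 lay higher (35.2%). In E18 bladder 6 genes lay higher (27.1% of all genes), namely Lcn2, Slpi, Mptx1, Reg3g, Pglyrp1 and Cd177, and Defb1 alone lay lower (22.2%). In E19 bladder 5 lay higher (41.5%), namely Lcn2, Slpi, Mptx1, Reg3g and Cd177, and Defb1 lay lower (23.2%). At E15 Pglyrp1 lay higher (33.8%), Defb1 lay lower (21.4%) and 6 genes overlapped. In distal stomach 5 genes did not overlap either, Lcn2 and Mptx1 higher (16.7% of all genes) and Defb1, Defb4 and Slpi lower (11%), with differences of at most 0.66 in size. In small intestine Cd177 lay higher (27.7%) and Defb1 and Mptx1 lower (13.6%). In large intestine Defb1 lay lower (15.2%) and none lay higher (11.8%). The choice of genes rested in part on these values, so the counts are descriptions.

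**Figure D2:**
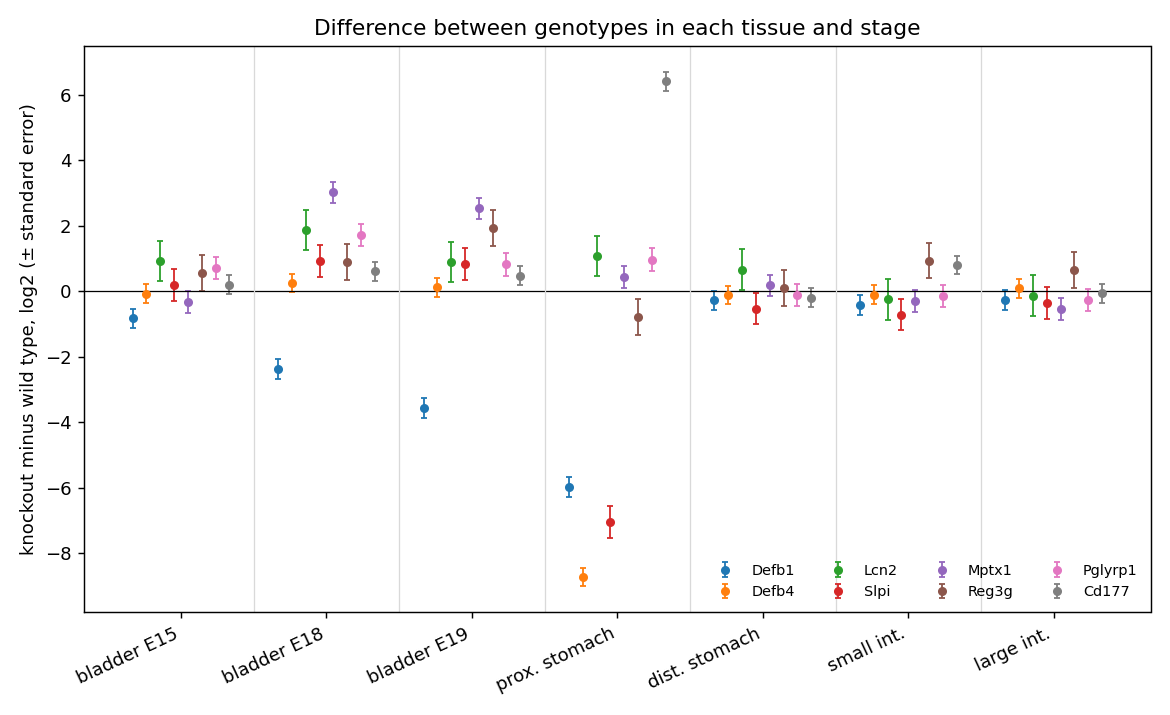
Log2 difference, knockout minus wild type (vertical axis, error bars are the standard error of the fit) for each gene in each of the 7 tissues and stages (horizontal axis). Differences beyond 5 in either direction occur in proximal stomach, with Defb4 at −8.72, Slpi at −7.04, Defb1 at −5.98 and Cd177 at 6.42.

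Defb1 encodes beta-defensin 1, a defensin that epithelia make constitutively. Its wild-type arrays read 12.78 and 12.58 in proximal stomach, and its knockout arrays read 6.65 and 6.74, a difference of −5.98 (SE 0.30, 63.2-fold lower). Here and for Mptx1, Reg3g and Cd177, a fold against a group below the array median is the ratio of the deposited values and is not exact. In bladder the wild-type arrays read 7.35 and 7.51 at E15, 9.38 and 8.82 at E18, and 9.83 and 8.48 at E19. The knockout arrays read 6.65 and 6.57, then 6.44 and 7.01, then 5.57 and 5.60. No knockout array reached a wild-type array of its stage, and the difference was −0.82 at E15, −2.38 at E18 and −3.57 at E19. The E19 value ranged from −4.24 to −2.89 over the alternatives, lowest without the second wild-type array. In the same tissues 17 of 21 squamous markers fell in the proximal stomach (median −3.34), beside 32.7% of all genes called in either direction. Of 14 basal cell markers 7 fell there and 1 rose. In E18 and E19 bladder 8 and 10 of these 14 fell, beside 3.24% and 20.0% of all genes called. Squamous markers fell there for 1 and 2 of 21. The part of either set in the Defb1, Defb4 and Slpi differences was not tested. In whole tissue, fewer cells of a type and less RNA per cell cannot be told apart.

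In the columnar gut the genotypes of Defb1 were much closer. In distal stomach the knockout arrays read 6.67 and 6.64 and the wild-type arrays 6.92 and 6.95 (difference −0.28). In small intestine they read 6.56 and 6.42 against 7.05 and 6.76 (−0.42, SE 0.30). In large intestine they read 6.91 and 6.78 against 7.29 and 6.93 (−0.27). All of these arrays lay below their own array median. Defb1 was the 1 gene of 13613 (0.00735%) that was lower without overlap in the knockout of all 7 tissues and stages, which is how it was chosen, and 2 genes (0.0147%) were higher in all 7.

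A second probe set of Defb1 gave the same order in the stratified tissues and another in the intestine. It read 12.47 and 12.22 in wild-type against 5.33 and 5.67 in knockout proximal stomach, and it was lower in the knockout at each bladder stage. In small intestine it read 5.64 and 5.66 in the knockout against 5.44 and 5.28 in the wild type, which is the opposite order. In large intestine its genotypes overlapped, at 5.93 and 5.76 against 6.21 and 5.68. The lower Defb1 level in knockout intestine was thus seen with 1 of its 2 probe sets.

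**Figure D3:**
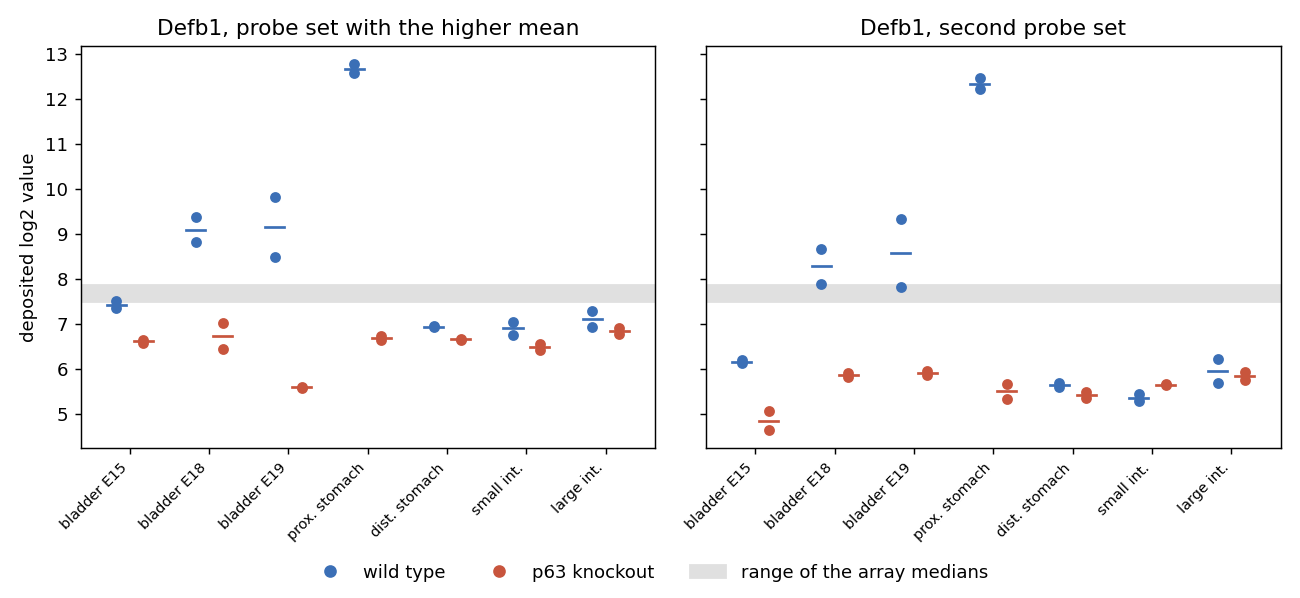
Defb1 by its 2 probe sets, with log2 values (vertical axis) in the 7 tissues and stages (horizontal axis). Points are arrays, lines are means of 2 arrays and the grey band is the range of array medians. Both panels show high wild-type values in proximal stomach and in E18 and E19 bladder, while small intestine reverses between the panels.

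Among wild-type tissues Defb1 was highest in proximal stomach and then in bladder. E18 bladder minus proximal stomach was −3.58 (SE 0.30), and E18 bladder exceeded distal stomach by 2.17. Distal stomach, small intestine and large intestine had overlapping arrays and means between 6.91 and 7.11. From E15 to E18 the wild-type bladder mean differed by 1.67 (SE 0.30), and from E18 to E19 by 0.06, or 0.73 without the second wild-type E19 array. In knockout bladder the E19 minus E18 difference was −1.13, or −0.54 with the mean of both probe sets. All of these arrays were used in choosing the gene, so no test is given.

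Defb4 encodes an inducible beta-defensin, and it was high in a single group. Wild-type proximal stomach read 12.77 and 12.78, and knockout proximal stomach read 4.04 and 4.06, a difference of −8.72 (SE 0.28). No fold is given, since the knockout values lie far below the array medians and may hold background. All 26 other arrays lay between 3.69 and 4.81, so the knockout level was that of tissues in which the gene is dim. Wild-type proximal stomach exceeded the other 4 wild-type E18 tissues by between 8.49 and 8.79. None of the 6 tested genotype differences exceeded 0.25 in size. A rise in knockout bladder from E15 to E18 of 0.77 passed (adjusted p = 0.0298) at levels of 3.69 to 4.81, and it ended under 6 alternatives, including without either knockout E15 array or the second knockout E18 array.

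Slpi encodes secretory leukocyte protease inhibitor, a WFDC-domain antiprotease of mucosal secretions. Its wild-type proximal stomach arrays read 14.79 and 14.80, and its knockout arrays read 7.73 and 7.79. Slpi fell by 7.04 (SE 0.48, 131-fold, limma adjusted p = 2.6e-10), and the call held under all 14 alternatives (highest adjusted p 1.6e-06). The knockout effect differed from that in E18 bladder by −7.96 (SE 0.69, adjusted p = 2.2e-08) and from that in distal stomach by −6.51 (SE 0.69, adjusted p = 3.6e-07). In the first comparison Slpi was the 1 call among 4 of the genes tested (22.8% of all genes passed) and in the second 1 among 5 (19.2%). Between bladder stages none of 6 passed, for E18 minus E15 (0.61%) or E19 minus E18 (5.27%).

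In bladder Slpi took the other direction without passing the test. At E18 the knockout arrays read 8.35 and 8.67 against 7.79 and 7.37 (difference 0.93, adjusted p = 0.382), and at E19 they read 10 and 9.96 against 9.11 and 9.18 (0.83, adjusted p = 0.242). The genotypes overlapped at E15, at 6.94 and 6.78 against 6.54 and 6.80. Slpi rose from E15 to E19 in both genotypes, by 3.12 in the knockout (SE 0.48, adjusted p = 9.4e-06) and by 2.47 in the wild type (adjusted p = 0.00012). Outside proximal stomach and bladder its arrays ranged from 7.11 to 9.43, with overlapping genotypes in the intestine.

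The 250 bases before the start of Slpi are shown because it is the tested gene with the largest difference, and p63 binds motifs of the p53 family. Sequences are from RefSeq, assembly GRCm38.p6, and 6 of the 8 genes are listed there (Defb1 and Defb4 are not). Capitals mark matches to the p53-family core, CNNG followed after 6 bases of any kind by CNNG, which reads the same on both strands. Slpi has 3, at 213, 154 and 45 bases before the start, and 63.5% of 32851 such windows hold at least 1. The window is chr2:164356508-164356757 on the minus strand.
Slpi: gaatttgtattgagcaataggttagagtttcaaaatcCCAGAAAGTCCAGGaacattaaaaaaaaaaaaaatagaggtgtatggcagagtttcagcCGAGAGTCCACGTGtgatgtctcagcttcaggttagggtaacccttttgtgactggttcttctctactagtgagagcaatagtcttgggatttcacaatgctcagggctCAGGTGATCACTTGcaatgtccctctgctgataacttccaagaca

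Mptx1 encodes mucosal pentraxin 1, a secreted pentraxin of the intestine. It was high in both intestinal regions, at 14.18 and 13.99 in wild-type and 13.75 and 13.82 in knockout small intestine, and at 14.64 and 13.41 against 13.38 and 13.57 in large intestine. It was low in both parts of the stomach, between 4.36 and 4.91. In wild-type bladder it stayed between 4.58 and 5.12 at all 3 stages.

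In knockout bladder Mptx1 was well above the wild type at the later stages. The arrays read 5.0 and 4.18 at E15, 8.52 and 7.59 at E18, and 7.50 and 7.10 at E19. The difference from the wild type was −0.33 at E15 (adjusted p = 0.598), 3.02 at E18 (SE 0.33, 8.12-fold) and 2.53 at E19 (SE 0.33, 5.77-fold, adjusted p = 2.7e-05). The E19 call held under all 14 alternatives (highest adjusted p 0.00265). Within knockout bladder Mptx1 rose from E15 to E19 by 2.71 (adjusted p = 3.7e-07). Its E18 minus E15 difference was 3.47, with no test because the E18 arrays were used in choosing the gene. Even so, knockout E18 bladder stayed below the lowest intestinal array by 4.86 or more.

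Reg3g encodes a C-type lectin that kills Gram-positive bacteria at the intestinal surface. It was highest in small intestine, where the knockout arrays read 10.02 and 10.04 and the wild-type arrays 8.0 and 10.18. The wild-type spread there exceeded the genotype difference of 0.94 (adjusted p = 0.935). Large intestine was far lower, at 4.76 and 5.55 in the wild type, and small intestine exceeded it by 3.93 (SE 0.55, adjusted p = 8e-06). In E19 bladder the knockout arrays read 7.68 and 7.47 against 5.29 and 6.02. Reg3g was higher in the knockout by 1.92 (SE 0.55, 3.79-fold, adjusted p = 0.0174). That call ended without either knockout E19 array or the first wild-type E19 array (adjusted p up to 0.142).

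From E18 to E19 Reg3g fell by 1.40 in wild-type bladder (SE 0.55, adjusted p = 0.0308) and changed by −0.38 in the knockout (adjusted p = 0.563). The difference between these changes was 1.02 (SE 0.77, adjusted p = 0.526) and was not told apart from 0. The wild-type call ended when arrays were centred on their medians, and without the second wild-type E18 or the first wild-type E19 array (adjusted p up to 0.217).

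For Mptx1, whose high groups are intestinal, the upstream window is printed for comparison with Slpi. It lies at chr1:174330268-174330517 on the plus strand, and it holds no match to the p53-family core, so it has no capitals. It holds the letters of TATAAA on the reverse strand at 198 and 82 bases before the start, and 12.4% of all windows hold that motif on either strand.
Mptx1: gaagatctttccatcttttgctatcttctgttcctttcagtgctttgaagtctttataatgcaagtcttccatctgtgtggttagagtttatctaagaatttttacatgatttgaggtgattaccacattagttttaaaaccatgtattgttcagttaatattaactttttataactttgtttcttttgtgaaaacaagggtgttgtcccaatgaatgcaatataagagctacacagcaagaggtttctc

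Pglyrp1 encodes a peptidoglycan recognition protein that binds bacterial walls. It was bright throughout the gut and dimmer in bladder. In proximal stomach the knockout arrays read 14.36 and 14.42 and the wild-type arrays 12.97 and 13.89. It was higher by 0.97 (SE 0.34, 1.95-fold, limma adjusted p = 0.036), but the call ended under 7 of 14 alternatives. These were quantile normalization, no variance trend, array weights, the actin covariate, and leaving out either knockout array or the first wild-type array. Over the 14 alternatives the difference ranged from 0.51 to 1.43. Distal stomach, small intestine and large intestine lay between 11.78 and 13.22 with overlapping genotypes.

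In bladder Pglyrp1 peaked at E18 in both genotypes. The wild-type arrays read 6.29 and 6.57, then 8.39 and 8.26, then 6.66 and 5.83, and the knockout arrays read 7.42 and 6.87, then 9.89 and 10.21, then 7.62 and 6.51. From E15 to E18 it rose by 1.90 in the wild type (SE 0.34, adjusted p = 0.00022) and by 2.91 in the knockout (adjusted p = 2.5e-06, or 0.0806 with the actin covariate). From E18 to E19 it fell by 2.08 (adjusted p = 2.5e-05) and by 2.98 (adjusted p = 2.7e-07). At E18 the knockout was higher by 1.73 (SE 0.34, 3.31-fold, adjusted p = 0.00589), a call that ended without the second array of either genotype (adjusted p up to 0.0748). The differences at E15 (0.72, adjusted p = 0.224) and E19 (0.82, adjusted p = 0.0994) pointed the same way and did not pass. The knockout effect at E18 exceeded that at E15 by 1.01 (SE 0.49, adjusted p = 0.454), which was not told apart from 0.

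**Figure D4:**
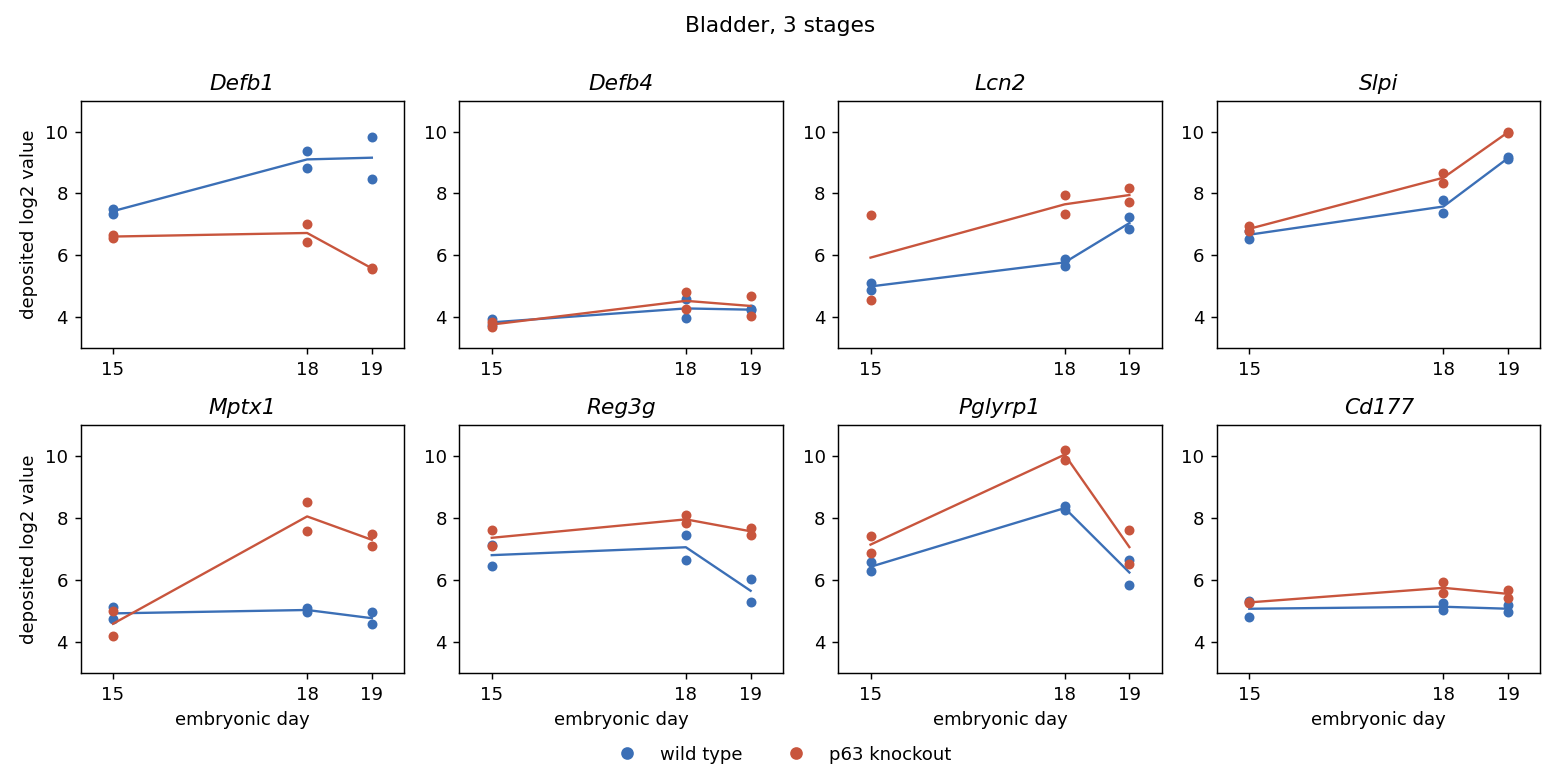
Bladder at embryonic days 15, 18 and 19 (horizontal axis) with log2 values (vertical axis, the same scale in each panel). Points are arrays and lines join the means of 2 arrays, blue for wild type and red for knockout. Slpi climbs in both genotypes, Pglyrp1 peaks at E18 in both, the wild-type arrays of Mptx1 stay between 4.58 and 5.12, and the knockout arrays of Defb1 do not exceed 7.01.

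Lcn2 encodes lipocalin 2, which is made by neutrophils and by stressed epithelium. It was highest in knockout bladder, at 7.35 and 7.95 at E18 and 7.72 and 8.18 at E19, against 5.67 and 5.88 and then 6.86 and 7.23 in the wild type. Its arrays did not overlap at those stages, yet neither difference passed (1.88, SE 0.62, adjusted p = 0.117 and 0.90, adjusted p = 0.333). No wild-type array of Lcn2 lay above its array median. Since the gene passed the filter through knockout arrays alone, its genotype differences are descriptions, also under the alternatives. The E18 difference passed under 3 alternatives (adjusted p down to 0.0205) and the E19 difference under 1, the arrays compared alone (adjusted p = 0.0464). At E15 the knockout arrays read 7.30 and 4.56, on both sides of the wild-type values of 5.10 and 4.90. Without the second of these arrays the E15 difference was 2.30 (adjusted p = 0.0116), and without the first it was −0.44. In knockout proximal stomach the arrays again differed widely, at 5.89 and 7.77 against 6.04 and 5.45 (difference 1.08, adjusted p = 0.194, and 2.81 without the first knockout array). Lcn2 rose from E15 to E19 in wild-type bladder by 2.04 (SE 0.62, adjusted p = 0.00575).

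Neutrophils also make Lcn2, so markers of blood cells are given beside it. Of 17 neutrophil markers on the array, 10 lay above the array median on no array, among them Elane, Prtn3, Ctsg and Csf3r. The mean level over the 17 was 6.41 to 6.67 in knockout and 5.97 to 6.11 in wild-type E18 bladder, and 7.22 to 7.32 against 6.69 to 6.96 at E19. At E15, where the Lcn2 knockout arrays lay far apart, it was 5.44 to 6.47 against 5.5 to 5.58. Macrophage markers (14 genes) averaged 9.31 to 9.58 against 8.88 to 9.02 at E18 and 9.61 to 9.72 against 9.12 to 9.44 at E19. Their E15 levels were 8.62 to 8.85 against 8.36 to 8.37. S100a8, which neutrophils and stressed epithelium both make, rose in knockout E18 bladder by 2.68 (SE 0.70, adjusted p = 0.041). The part of these cells in the bladder differences of Lcn2, Pglyrp1 and Mptx1 was not tested.

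Cd177 encodes a membrane-anchored glycoprotein known from the neutrophil surface. In knockout proximal stomach it read 11.43 and 11.57, against 5.14 and 5.03 in the wild type, a difference of 6.42 (SE 0.29, 85.5-fold higher). The neutrophil markers averaged 6.25 to 6.65 in knockout and 6.42 to 6.47 in wild-type proximal stomach, and their ranges overlapped. Of the 7 neutrophil markers tested there, Mpo rose by 0.92 (SE 0.30, adjusted p = 0.022), S100a9 fell by 2.17 (adjusted p = 0.032) and 5 did not pass (median 0.50, beside 0.02 for all genes). Gastric glandular markers rose in the same knockout arrays for 7 of 14 genes, beside 32.7% of all genes called in either direction. The part of either set in the Cd177 difference was not tested. Distal stomach was high in both genotypes, at 9.96 and 10.21 in the knockout and 10.61 and 9.95 in the wild type, and so was large intestine, between 9.16 and 9.91. Knockout proximal stomach thus read above every other array of the series, and wild-type proximal stomach read like bladder, where all arrays lay between 4.81 and 5.93. In small intestine the knockout arrays read 6.79 and 7.32 against 5.94 and 6.57 (difference 0.80, unadjusted p = 0.0116, adjusted p = 0.935).

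Among wild-type E18 tissues Cd177 separated distal stomach and large intestine from the rest. Distal stomach exceeded proximal stomach by 5.20 (SE 0.29, no test, since those arrays were used in choosing the gene) and small intestine by 4.03 (adjusted p = 4.2e-10), and it was not told apart from large intestine (0.69, adjusted p = 0.0936). The Cd177 window at chr7:24760312-24760561 on the minus strand is shown as that of the gene with the opposite change to Slpi. Its capitals mark a single p53-family core, 66 bases before the start. It also holds TATAAA at 40 bases before the start, as 12.4% of windows do, TGTTTAC of forkhead factors at 244 bases (3.17% of windows), and the NF-kappaB pattern, GGG followed after 5 bases of any kind by CC (45.8% on either strand). Of 3 overlapping matches to the last, the one 90 bases before the start is on the strand shown, and those at 89 and 86 bases are on the reverse strand.
Cd177: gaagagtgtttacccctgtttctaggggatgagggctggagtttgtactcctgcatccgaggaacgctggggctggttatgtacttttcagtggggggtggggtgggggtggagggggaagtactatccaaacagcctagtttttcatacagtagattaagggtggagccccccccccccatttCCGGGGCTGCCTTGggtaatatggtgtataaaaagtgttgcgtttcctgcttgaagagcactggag

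Across the wild-type E18 tissues 40 of 80 tests of the 8 genes between pairs of tissues passed, beside 43.2% over all genes. That count holds tests on arrays used in choosing Defb1, Defb4 and Cd177, and Defb4 passed the filter through wild-type proximal stomach alone. Without those tests 26 of 62 passed. The 62 still hold the Mptx1 tests on wild-type E18 bladder, whose arrays were also used in choosing that gene. Among these, bladder passed as lower than small intestine (−9.05) and large intestine (−8.99). Proximal stomach against small intestine gave 4 calls of the remaining 5 tests (53.6% of all genes), and distal stomach against large intestine gave 1 of 8 (24.5%). Lcn2 was the gene with no call in any of the 10 pairs. Over bladder stages 20 of 48 tests passed, beside 59.3% over all genes, and 15 of 38 without Defb1 and the E18 stages of Mptx1. Of those 15, 12 were higher at the later stage, beside 40.9% of the stage calls over all genes. Both reduced counts keep tests of Defb4 outside proximal stomach, on arrays that all lay far below their medians. Its rise in knockout bladder from E15 to E18 is 1 of the 15.

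Each gene had a different set of closest companions over the 14 group means (Pearson r, 3 genes each, a description in which points share arrays). Defb4 ran with Sprr2k, Lce1d and Wfdc5 (r of 0.998, 0.998 and 0.997), of which the Sprr and Lce genes encode cornified envelope proteins, and 1 group sets these values. Slpi ran with Lce1a2, Scgb1a1 and Il1f9 (0.960, 0.960 and 0.957). Defb1 ran with Dapl1 (0.967), Pard3 (0.944) and Pak6 (0.934). In wild-type proximal stomach Slpi had a mean of 14.80 (9.98 in its next group) and Defb1 one of 12.68 (9.16 in its next group). That group therefore weighs heavily on the values of both. Mptx1 ran with the intestinal cadherin gene Cdh17 (0.983), the mucin gene Muc13 (0.978) and the lectin gene Reg4 (0.974). Cd177 ran with Foxa2 (0.986), a forkhead factor of foregut endoderm, with Ceacam10 (0.969) and Mcf2l (0.946). Lcn2 was closest to S100a8 (0.899), Nr4a1 (0.875) and Marchf2 (0.868). Pglyrp1 was closest to Fgfbp1 (0.955), Galnt12 (0.954) and Snap25 (0.953), and Reg3g to Mroh1 (0.938), Dab1 (0.915) and Snx9 (0.908). Within the set, Defb4 and Slpi were most alike (0.918), then Defb1 and Defb4 (0.845), then Pglyrp1 and Cd177 (0.749). Both values of Defb4 are likewise set by 1 group, wild-type proximal stomach.

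The order of the group means was resolved only in part. For Defb1, 8 of 13 neighbouring pairs of groups overlapped, for Defb4 11, for Lcn2 10, for Slpi 10, for Mptx1 9, for Reg3g 11, for Pglyrp1 8 and for Cd177 6. The clear steps were the gap of 7.96 below wild-type proximal stomach for Defb4, of 4.79 for Slpi and of 2.75 for Defb1, and that of 4.86 below the intestine for Mptx1. Lcn2 had no step over 0.31.

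Other secreted effectors were examined as a list of 46 genes, of which 40 are on the array and 26 were tested. In proximal stomach 3 rose, 4 fell and 19 did not pass (7 of 26 called, beside 32.7% of all genes, and a median difference of 0.14, beside 0.02). The rises included Wfdc2, another WFDC-domain antiprotease, by 5.02 (SE 0.23, adjusted p = 4.4e-13), from 8.99 to 14.01, whereas Slpi of the same family fell. The falls included the defensin gene Defb6 by 4.97 (SE 0.25, adjusted p = 1.5e-12), Wfdc12 by 3.31 (adjusted p = 2.8e-09) and the calprotectin subunit gene S100a9 by 2.17 (adjusted p = 0.032). In the same arrays 11 of 14 general epithelial markers rose, and their part in these differences was not tested.

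In E18 bladder 3 effectors rose, 1 fell and 22 did not pass, beside 3.24% of all genes called. Reg4 rose by 3.51 (SE 0.52, adjusted p = 0.00036), S100a8 by 2.68 and Lypd8, which binds flagella of gut bacteria, by 2.05 (adjusted p = 0.0053), while Wfdc2 fell by 1.14 (adjusted p = 0.0074). With the first wild-type E18 array left out the list had 1 call instead of 4. At E19 3 of 26 passed, beside 20.0% of all genes. Reg4 rose by 3.08 (adjusted p = 0.00034), and Wfdc2 and the acute-phase gene Saa3 fell by 1.65 and 1.41. Wfdc2 thus rose in proximal stomach and fell in bladder. Markers of goblet and Paneth cells, the secretory cells of the intestine, were higher in knockout bladder for 6 of 13 genes at E18 and 7 of 13 at E19, led by Tff3 (4.49 and 4.35). Their part in the rise of Mptx1 was not tested. At E15 none of the 26 effectors passed, beside 7.04% of all genes (6 had an unadjusted limma p under 0.05). None passed in distal stomach, small intestine or large intestine either. There 4, 2 and 8 of the 26 had such a p, beside 3.88%, 4.6% and 4.89% of all genes.

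Genes that sense microbes or induce these effectors formed a list of 46, with 42 on the array and 34 tested. In proximal stomach 11 rose and 10 fell, 21 of 34 beside 32.7% of all genes (median difference 0.05). The receptor gene Tlr1 rose by 4.10 (SE 0.31, adjusted p = 1e-09) and Tlr4, the endotoxin receptor gene, by 1.93 (adjusted p = 0.00048). The epithelial cytokine genes Il33 and Il18 fell by 3.55 (SE 0.38, adjusted p = 2.4e-07) and 2.59 (adjusted p = 1.3e-08). In bladder the interleukin receptor gene Il17re passed at E15 (1.12 higher, beside 7.04% of all genes called). None of 34 passed at E18, beside 3.24% of all genes (5 had an unadjusted limma p under 0.05). At E19, 4 of 34 passed, beside 20.0% of all genes. Il22ra1 was higher by 0.59, while Cebpd, Cxcl1 and Nfkbia fell by 0.63, 0.61 and 0.43. The E15 count was 0 without the first knockout or the first wild-type E15 array and with the actin covariate. The E19 count fell to none without the second knockout or the first wild-type E19 array. The actin probe sets, a sign of RNA integrity, had a larger 3′ minus 5′ difference in wild-type (0.97 and 0.88) than in knockout proximal stomach (0.48 and 0.61), and in knockout (1.33 and 1.12) than in wild-type E15 bladder (0.69 and 0.78). With that difference as a covariate the sensing count in proximal stomach was 13 instead of 21.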

How the data were processed

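Total RNA from 28 samples was extracted with Trizol and labelled with biotin by a 3′ IVT kit, per the labels' protocols. The authors deposited 1 log2 value per probe set and array. Per the submitters' processing notes, the software was Affymetrix Expression Console and Partek. How probes were summarized and arrays normalized is not given in the sources used here. No scaling was added.

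Of 45101 probe sets, 64 controls were left out. Probe sets with 1 symbol (34945; 932 have several and 9160 none) above the array's median on at least 2 arrays were kept, and the one with the highest mean stood for its gene, which left 13613 genes. limma 3.58.1 (R 4.3.3) fitted 1 mean per group over all arrays with a variance trend (14 residual and 6.19 prior degrees of freedom). P-values are two-sided and Benjamini-Hochberg adjusted over all genes of a contrast, and values under 0.05 are called. With 2 arrays against 2, the smallest p of an exact permutation test is 0.333. Groups overlap unless both arrays of one lie above both of the other. The code was tested on simulated data. Tables and figures used Python 3.11.15.

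The genes, gene lists and tests were chosen with earlier results of these data known. The text names the 8 genes, for each the 3 genes with the highest correlation over group means, and up to 4 called genes with the largest difference per list and comparison. Alternatives were other filters, scalings, probe-set summaries and variance models, array weights, the arrays compared alone, a replicate block, an actin covariate and each array left out. The number of arrays limits the precision.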

Additional observations from a re-analysis of the deposited data

Results flagged for a closer look

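The effect of the knockout on Slpi differed between tissues. Its knockout minus wild-type difference in proximal stomach was lower than that in E18 bladder by 7.96 on the log2 scale (value −7.96, limma adjusted p = 2.2e-08, beside 22.8% of all genes called). It was lower than that in distal stomach by a similar amount (value −6.51, adjusted p = 3.6e-07, beside 19.2%). Both differences rest on 2 arrays per group, and the 2 comparisons share the proximal stomach arrays.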

How the results depend on the processing

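Of the 4 counts of called tests, the 5 calls between genotypes became 8 when only the arrays compared were fitted, and were 4 to 7 with an array left out. Over the alternatives that keep every array, the 40 region calls were 35 to 43 and the 20 stage calls 15 to 23. The 2 differences between effects stayed at 2. The labels tie the replicate numbers to no shared animal or litter, and same-numbered deviations correlated between −0.127 and 0.275 over the 7 comparisons (0.25 in proximal stomach, 0.196 in distal stomach, 0.275 in large intestine), so pairing is not settled. With the replicate block the counts were 5, 43, 22 and 2. List counts, and the reduced region and stage counts, were added after seeing the data. With every array kept, effector calls ranged from 0 to 3 in E15, 3 to 5 in E18 and 2 to 8 in E19 bladder, and 4 to 8 in proximal stomach. Sensing calls ranged from 0 to 2 in E15, 0 to 3 in E18 and 2 to 6 in E19 bladder.

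Defb1 apart, the signs that turned were of differences that were not called in the fit reported. With the actin covariate, Lcn2 was −1.30 in E15 bladder and 0.14 in large intestine, and Defb1 was −0.011 from E18 to E19 in wild-type bladder. With the mean of both probe sets, the E19 minus E15 difference of Defb1 in knockout bladder (−1.02) became 0.019. With an array left out, Defb4 ranged from −0.17 to 0.035 (E15 bladder), −0.063 to 0.56 (E18), −0.19 to 0.42 (E19), −0.25 to 0.054 (small intestine) and −0.30 to 0.48 (large intestine). Lcn2 ranged from −0.44 to 2.30 (E15 bladder), −0.59 to 0.10 (small intestine) and −0.75 to 0.48 (large intestine). Slpi ranged from −1.55 to 0.13 (small intestine), −1.20 to 0.50 (large intestine), −1.25 to 0.43 (wild-type E18 bladder minus small intestine) and −1.59 to 0.086 (small minus large intestine). Mptx1 ranged from −0.74 to 0.077 (E15 bladder) and −1.16 to 0.069 (large intestine), and Reg3g from −0.17 to 0.36 (distal stomach) and −0.15 to 2.03 (small intestine). Pglyrp1 ranged from −0.26 to 0.0325 (distal stomach), −0.30 to 0.015 (small intestine) and −0.72 to 0.18 (large intestine). Cd177 ranged from −0.057 to 0.47 (E15 bladder), −0.53 to 0.14 (distal stomach) and −0.44 to 0.32 (large intestine). Defb1 from E18 to E19 in wild-type bladder ranged from −0.62 to 0.73. The causes were not tested. Arrays of 1 dim probe set, such as Defb4 outside proximal stomach, limit what a difference there can show.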
